A study of Homo sapiens with 6 samples.

Results

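The transcripts of 10 genes that set or mark epithelial and mesenchymal identity were followed in HCT116 cells, an established line of human colorectal cancer, after the long noncoding RNA GMDS-AS1 was knocked down. The genes were taken by symbol, and they are 10 of the 60662 genes with a value. They are the adherens junction genes CDH1 and CTNND1, the surface protein EPCAM, the splicing factors ESRP1 and ESRP2, the transcription factors GRHL2 and OVOL1, and the mesenchymal genes VIM, ZEB1 and SNAI2. Of the 10, 9 passed the filter on low values and SNAI2 did not. Poly-A RNA was sequenced in 3 libraries of cells transduced with the control hairpin (shCtrl, genotype WT) and in 3 libraries of cells that carried GMDS-AS1 shRNA2 (genotype GMDS-AS1 knockdown). Both groups are lentivirus-transduced HCT116 cells grown in McCoy's 5a medium with fetal bovine serum, and the hairpins sat in a puromycin resistance plasmid. The labels number the libraries of each group as biological replicates, without saying whether each came from its own transduction. A single hairpin and a single cell line stand behind every comparison, so an effect of GMDS-AS1 loss and an effect of this hairpin cannot be told apart.

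Epithelial cells hold to each other through adherens junctions, in which E-cadherin spans the membrane and catenins bind its tail. In the epithelial to mesenchymal transition (EMT), transcription factors of the ZEB, SNAI and TWIST families repress E-cadherin and other epithelial genes, and filaments of vimentin appear. The GRHL and OVOL factors and the ESRP splicing factors work on the epithelial side of this switch, and ZEB1 and OVOL factors are known to repress each other. Carcinoma lines such as HCT116 keep many epithelial genes on and can express single mesenchymal genes at a low level.

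The sequence that hairpin 2 targets is shown because it defines the treated group. It lies on the plus strand of GRCh38, at chr6:2413207-2413227, in exon 3 of 3 of 2 transcripts of GMDS-DT, the current symbol of GMDS-AS1. The gene has 16 annotated transcripts.

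GMDS-AS1 shRNA2 target: aagaccacagatagatggtaa

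The targeted gene had 1.66, 2.21 and 1.34 TPM with shCtrl and 0.88, 0.91 and 0.79 TPM with GMDS-AS1 shRNA2. These values cover all its transcripts, so the level of the 2 that hold the target cannot be read from them. TPM is a level per length of transcript that sums to the same total in each library, so it can be compared between genes of a library. The groups did not overlap, and GMDS-AS1 was lower by -0.41 on the log2 scale (SE 0.14, adjusted p = 0.0407 from limma). This call was lost when single libraries were left out, with adjusted p up to 0.117 without shCtrl replicate 2, and under other filters. Between 24381 and 26402 genes were above 0 in a library. Levels across genes correlated at r of 0.985 to 0.987 within a group and 0.956 to 0.957 between groups. As a check of the label, the summed level of 9 epithelial markers was 9360 to 9813 TPM in shCtrl and 3638 to 3747 TPM in GMDS-AS1 shRNA2, nearly all of it from keratins, while the colon genes CDH17, VIL1 and LGALS4 were at most 0.54 TPM. Fibroblast markers summed to 13.7 to 15.3 and 10.3 to 11.3 TPM, mostly COL1A1. The leukocyte marker PTPRC was listed at 0 in every library, and endothelial markers summed to at most 1.13 TPM. What part these differences in marker levels have in the results that follow was not tested.

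Fold changes were fitted with limma on log2(TPM + 1) after a trimmed mean scaling between libraries, which understates the change of genes near or below 1 TPM. On this scale a negative value means a lower level in GMDS-AS1 shRNA2. A gene was called at a Benjamini-Hochberg adjusted p under 0.05 over all 16901 genes tested. Of the 9 genes tested here, 2 were called higher, CTNND1 and ESRP2, beside 28.5% of all genes tested. Another 3 were called lower, ESRP1, OVOL1 and VIM, beside 25.9% of all genes tested. Both directions together took in most of the genes tested, so these shares of called genes are near the background. OVOL1 and VIM fell at least 2-fold, which 4.24% of all genes tested did. VIM would not have passed the filter without its shCtrl libraries, so its place in these counts is no support for them. CDH1, EPCAM, GRHL2 and ZEB1 were not called. The median log2 fold change of the 9 was -0.14, against -0.0020 over all genes. In a bulk library, fewer cells that express a gene and less RNA per cell cannot be told apart.

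**Figure D1:**
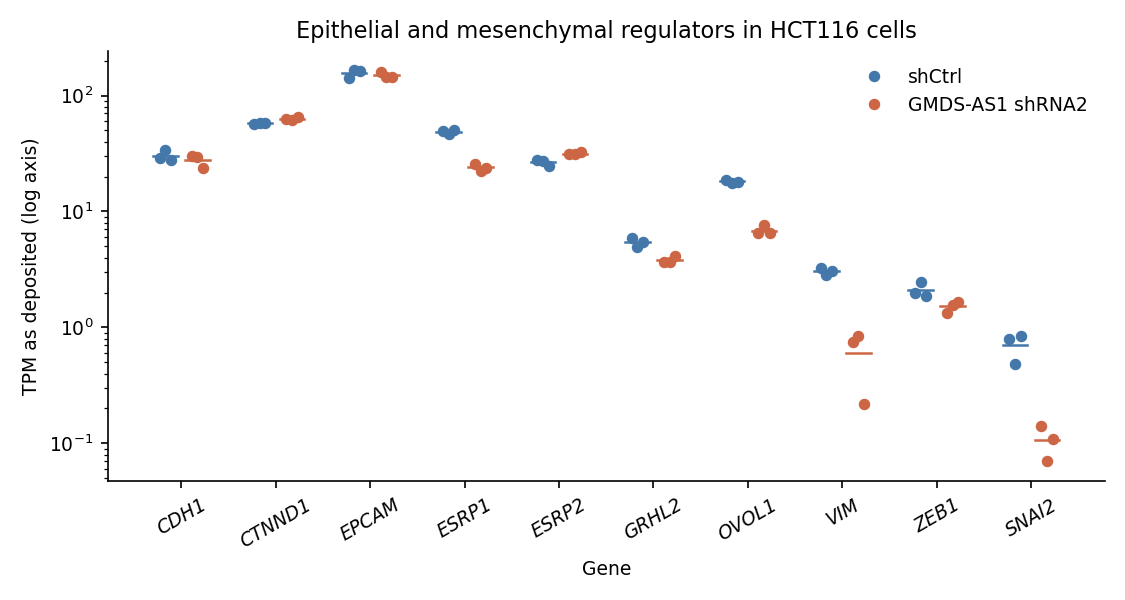
TPM as deposited (log axis) of the 10 genes in each of the 6 libraries; points are libraries, with shCtrl on the left and GMDS-AS1 shRNA2 on the right of each gene, and lines are group means. CDH1 and EPCAM overlap between the groups, ESRP1 and OVOL1 sit lower in all 3 GMDS-AS1 shRNA2 libraries, and VIM and SNAI2 fall below 1 TPM there.

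The order of the levels shifted in the middle of the range. In shCtrl it ran from EPCAM through CTNND1, ESRP1, CDH1, ESRP2, OVOL1, GRHL2, VIM and ZEB1 to SNAI2, and only CDH1 and ESRP2 overlapped as neighbours. In GMDS-AS1 shRNA2, ESRP2 stood next after CTNND1, above CDH1 and ESRP1, which overlapped each other, and ZEB1 stood above VIM. The other neighbours were separated in every library of their group.

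CDH1 encodes E-cadherin, the transmembrane adhesion protein of the adherens junction. It lies at chr16:68737225-68835548 on the plus strand (GRCh38, GENCODE v29, as for the positions that follow). Its level was 28.98, 33.92 and 27.83 TPM in shCtrl and 30.21, 29.61 and 23.8 TPM in GMDS-AS1 shRNA2. The groups overlapped, and shCtrl replicate 2 was the highest library and GMDS-AS1 shRNA2 replicate 3 the lowest. The means were 30.2 ± 3.24 and 27.9 ± 3.54 TPM (SD, n = 3 each). The fitted log2 fold change was 0.12 (95% interval -0.14 to 0.39, adjusted p = 0.391), and its sign turned to -0.12 when the TPM were used as deposited. It ran from 0.056 to 0.24 over the libraries left out in turn, uncalled each time. A 2-fold change in either direction lies outside the interval.

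CTNND1 encodes p120-catenin, which binds the membrane-near part of the cadherin tail and slows its endocytosis. It lies at chr11:57753243-57819546 on the plus strand. The level was 56.56, 58.38 and 57.63 TPM in shCtrl and 62.3, 62.02 and 65.7 TPM in GMDS-AS1 shRNA2. All 3 GMDS-AS1 shRNA2 libraries were above all shCtrl libraries, with means of 63.3 ± 2.05 and 57.5 ± 0.915 TPM. CTNND1 rose by 0.38 on the log2 scale (SE 0.034, adjusted p = 0.000113). Without scaling between libraries the rise was 0.14 and was still called (adjusted p = 0.0178). The annotated readthrough gene TMX2-CTNND1 covers the same exons and was given no value, so its reads cannot be told apart from those of CTNND1.

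EPCAM encodes a surface glycoprotein of epithelial and carcinoma cells that is shed and cleaved by proteases, and it lies at chr2:47345158-47387601 on the plus strand. It was the most abundant of the 10 transcripts, at 141.04, 164.95 and 163.25 TPM in shCtrl and 160.39, 143.54 and 144.29 TPM in GMDS-AS1 shRNA2. The groups overlapped, since the lowest library was of shCtrl. The means were 156.4 ± 13.3 and 149.4 ± 9.52 TPM. The log2 fold change was 0.18 (95% interval 0.0063 to 0.36, adjusted p = 0.0758), and it was -0.06 with TPM as deposited. Without shCtrl replicate 1, the lowest library, it was 0.086.

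ESRP1 and ESRP2 encode epithelial splicing regulatory proteins, related RNA-binding proteins that favour the epithelial exons of genes such as FGFR2, CD44 and ENAH. ESRP1 lies at chr8:94641074-94707466 on the plus strand and ESRP2 at chr16:68229111-68238102 on the minus strand. ESRP1 was at 48.99, 46.27 and 50 TPM in shCtrl and at 25.85, 22.42 and 23.82 TPM in GMDS-AS1 shRNA2. Every GMDS-AS1 shRNA2 library was far below every shCtrl library, and the mean went from 48.4 ± 1.93 to 24.0 ± 1.73 TPM. ESRP1 fell by 0.74 on the log2 scale (SE 0.061, adjusted p = 7.26e-05), and 8.78% of all genes tested had a value as low or lower.

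ESRP2 moved the other way. It stood at 27.87, 27.24 and 24.58 TPM in shCtrl and at 31.35, 31.15 and 32.31 TPM in GMDS-AS1 shRNA2, with no overlap. The means were 26.6 ± 1.75 and 31.6 ± 0.620 TPM, and ESRP2 rose by 0.48 on the log2 scale (SE 0.050, adjusted p = 0.00023). With TPM as deposited the rise was 0.24 (adjusted p = 0.00907). ESRP2 overlaps the gene NFATC3 on the other strand, at 7.40 to 7.92 TPM in shCtrl and 5.49 to 6.14 TPM in GMDS-AS1 shRNA2, and the transcript AC020978.5 on its own strand, at 4.32 to 5.86 and 4.05 to 4.59 TPM. As deposited, NFATC3 was lower in every GMDS-AS1 shRNA2 library, and AC020978.5 overlapped between the groups. Whether the counting used the strand is not given in the sources used here, so reads of overlapping genes may have been split in either way.

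The ratio of the paralogs turned over within the libraries, a measure that no scaling between libraries can move. ESRP1 TPM over ESRP2 TPM was 1.76, 1.7 and 2.03 in shCtrl and 0.825, 0.72 and 0.737 in GMDS-AS1 shRNA2, so ESRP1 was the more abundant paralog in all 3 shCtrl libraries and the less abundant in all 3 GMDS-AS1 shRNA2 libraries. On the log2 scale with a pseudocount of 1 TPM the ratio fell by 1.23, which the exact two-sided permutation test gave p = 0.1, the smallest it can reach with 3 against 3 libraries (0.15 adjusted over the 6 ratios).

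**Figure D2:**
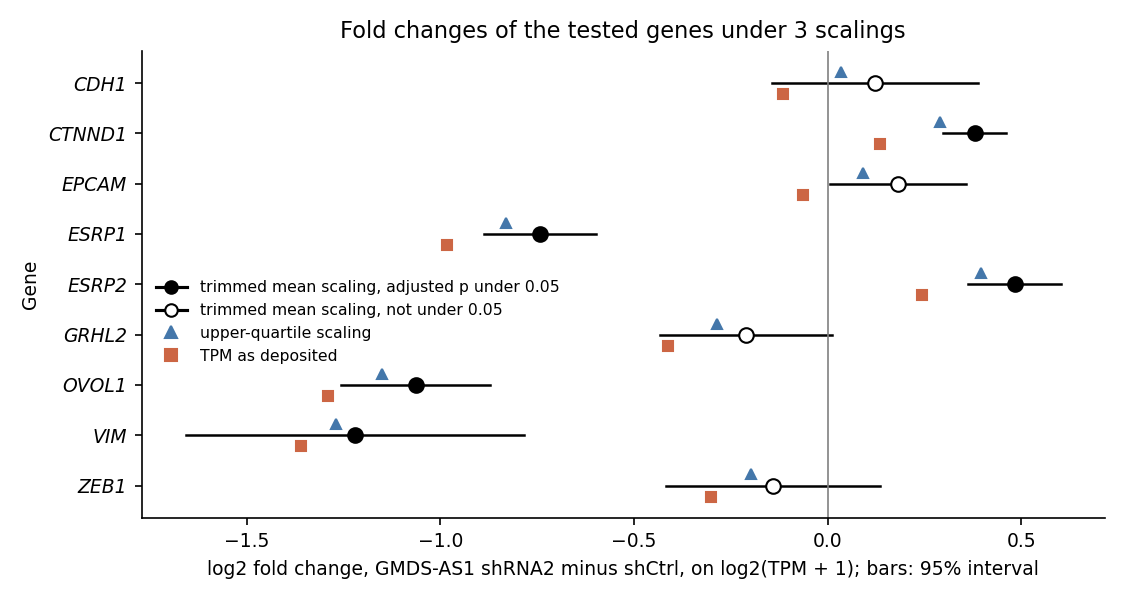
Log2 fold change on log2(TPM + 1), GMDS-AS1 shRNA2 minus shCtrl, of the 9 genes tested; circles with bars are the fit after trimmed mean scaling and its 95% interval (filled where called), triangles the fit after upper-quartile scaling and squares the fit on TPM as deposited. ESRP1, OVOL1 and VIM lie below 0 and CTNND1 and ESRP2 above 0 under all 3 scalings, whereas CDH1 and EPCAM cross 0 with TPM as deposited.

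GRHL2 encodes a grainyhead-like factor that binds enhancers of CDH1 and other junction genes, and it lies at chr8:101492432-101669726 on the plus strand. Its level was 5.96, 4.91 and 5.44 TPM in shCtrl and 3.7, 3.68 and 4.1 TPM in GMDS-AS1 shRNA2. As deposited the groups did not overlap, with means of 5.44 ± 0.525 and 3.83 ± 0.237 TPM. After trimmed mean scaling the log2 fold change was -0.21 (95% interval -0.43 to 0.011, adjusted p = 0.0974). This is the gene of the 9 whose call hung on the processing: it was called lower with TPM as deposited (-0.41, adjusted p = 0.00862), after upper-quartile scaling (-0.29, adjusted p = 0.0374) and without shCtrl replicate 2 (-0.29, adjusted p = 0.0492).

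OVOL1 encodes a zinc finger repressor of epithelial tissues and lies at chr11:65787022-65797219 on the plus strand. It was at 18.58, 17.74 and 18.09 TPM in shCtrl and at 6.46, 7.61 and 6.46 TPM in GMDS-AS1 shRNA2. The 3 libraries of each group lay close together and far from those of the other group, at means of 18.1 ± 0.422 and 6.84 ± 0.664 TPM. OVOL1 fell by 1.06 on the log2 scale (SE 0.080, adjusted p = 5e-05), and 3.70% of all genes tested had a value as low or lower. The 2 antisense genes annotated over OVOL1, AP001266.1 and OVOL1-AS1, were at most 0.91 TPM in any library. The ratio of GRHL2 to OVOL1 was 0.321, 0.277 and 0.301 in shCtrl and 0.573, 0.484 and 0.635 in GMDS-AS1 shRNA2, a rise of 0.88 on the log2 scale with no overlap (exact permutation p = 0.1).

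VIM encodes vimentin, the intermediate filament protein of mesenchymal cells, at chr10:17228259-17237593 on the plus strand. VIM was at 3.27, 2.84 and 3.05 TPM in shCtrl and at 0.75, 0.84 and 0.22 TPM in GMDS-AS1 shRNA2. It was low in all libraries beside the epithelial genes, and lower in all 3 GMDS-AS1 shRNA2 libraries. GMDS-AS1 shRNA2 replicate 3 was under the filter level of 0.5 TPM, so VIM would not have passed the filter by its GMDS-AS1 shRNA2 libraries alone. The means were 3.05 ± 0.215 and 0.603 ± 0.335 TPM, a ratio of 5.06 between shCtrl and GMDS-AS1 shRNA2. VIM fell by 1.22 on the log2(TPM + 1) scale (SE 0.18, adjusted p = 0.00136), and by 2.09 with a pseudocount of 0.1 TPM. Without GMDS-AS1 shRNA2 replicate 3, the lowest library at roughly 9.7 reads, the fitted value was -1.02 and was still called. These read numbers are approximate, from an assumed fragment length of 200 bases and the longest transcript. Antisense VIM-AS1 stood at 0.31, 0.05 and 0.33 TPM in shCtrl and at 0, 0.06 and 0 TPM in GMDS-AS1 shRNA2. The 250 bases before the VIM start in RefSeq (GRCh38.p14, plus strand, chr10:17227991-17228240) are shown because VIM had the lowest fold change of the 9 genes tested. They hold no match, on either strand, to CACCTG, the E-box that ZEB and SNAI factors bind, or to CCGTTA (OVOL), AACNNGTT (GRHL) or TGANTCA (AP-1).

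VIM: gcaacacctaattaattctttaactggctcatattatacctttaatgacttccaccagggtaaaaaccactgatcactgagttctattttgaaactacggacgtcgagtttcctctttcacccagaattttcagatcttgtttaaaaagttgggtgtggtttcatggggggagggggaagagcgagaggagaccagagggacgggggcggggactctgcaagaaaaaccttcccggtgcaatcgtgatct

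ZEB1 encodes the zinc finger repressor of CDH1 and of the miR-200 genes, at chr10:31318495-31529814 on the plus strand. It was at 2, 2.45 and 1.86 TPM in shCtrl and at 1.33, 1.55 and 1.67 TPM in GMDS-AS1 shRNA2. The libraries of GMDS-AS1 shRNA2 were below those of shCtrl as deposited, at means of 1.52 ± 0.172 and 2.1 ± 0.308 TPM. The log2 fold change was -0.14 (95% interval -0.42 to 0.13, adjusted p = 0.341), and no alternative gave a call. Its divergent and overlapping antisense RNA, ZEB1-AS1, was at 7.02, 4.16 and 5.43 TPM in shCtrl and at 2.01, 1.58 and 1.99 TPM in GMDS-AS1 shRNA2. ZEB1-AS1 was therefore more abundant than ZEB1 itself in every library of both groups, though barely so in GMDS-AS1 shRNA2 replicate 2. It fell by 0.99 on the log2 scale (SE 0.17, adjusted p = 0.00252). Without strand, reads of the shared stretch of these RNAs cannot be told apart. The ratio of ZEB1 to VIM was 0.612, 0.863 and 0.61 in shCtrl and 1.77, 1.85 and 7.59 in GMDS-AS1 shRNA2, so ZEB1 was below VIM in shCtrl and above it in GMDS-AS1 shRNA2 (1.06 on the log2 scale, exact permutation p = 0.1). The window before the first of 7 ZEB1 starts (GRCh38.p14, plus strand, chr10:31318167-31318416) is shown for contrast with VIM, with its match in capitals. It holds 1 E-box, read as CAGGTG and beginning 57 bases before the start, and no match to the other motifs. Of 35116 such windows, 17.5% hold the E-box, 2.45% the OVOL motif and 6.57% the AP-1 motif.

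ZEB1: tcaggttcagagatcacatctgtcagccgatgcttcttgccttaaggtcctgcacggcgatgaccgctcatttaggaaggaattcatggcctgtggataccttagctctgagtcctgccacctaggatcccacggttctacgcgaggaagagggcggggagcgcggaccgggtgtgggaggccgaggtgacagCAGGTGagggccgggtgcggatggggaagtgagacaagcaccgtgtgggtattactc

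SNAI2 encodes the E-box repressor Slug, at chr8:48917604-48921740 on the minus strand. It was at 0.79, 0.48 and 0.85 TPM in shCtrl and at 0.14, 0.07 and 0.11 TPM in GMDS-AS1 shRNA2. Both groups were near the lower end of what the libraries resolve, with some 23.1 to 45.1 reads in shCtrl and 3.6 to 7.7 reads in GMDS-AS1 shRNA2 on the same approximation. With 2 libraries at or above 0.5 TPM, SNAI2 did not pass the filter. In the fit without a filter its log2 fold change was -0.55 (adjusted p = 0.0111).

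**Figure D3:**
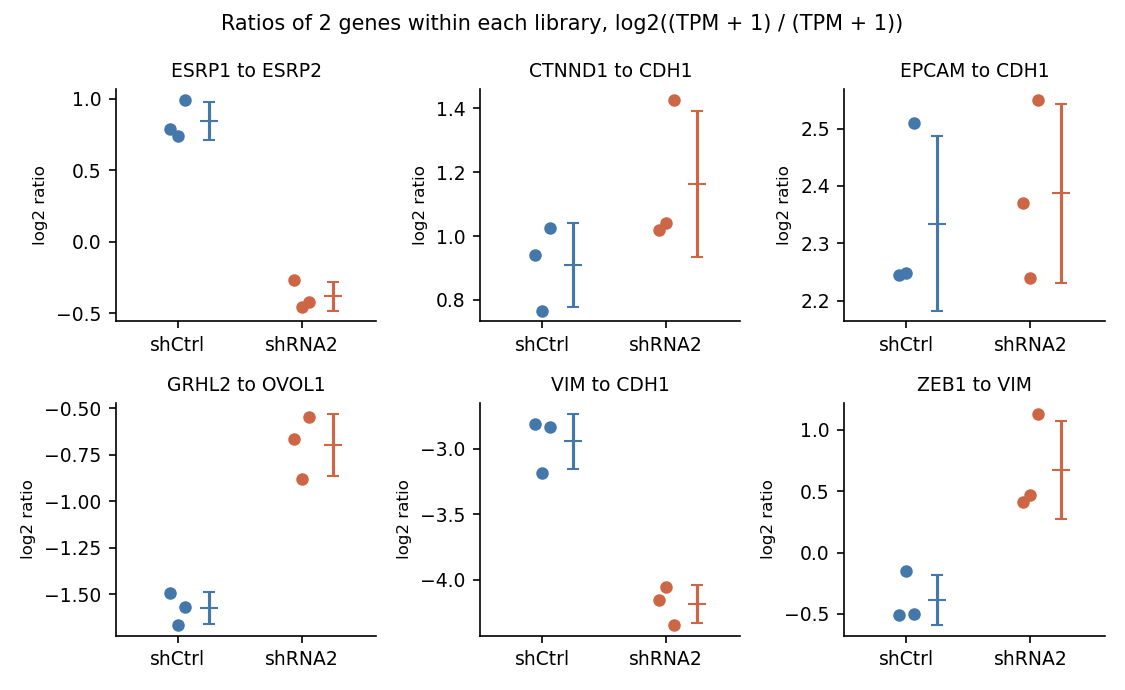
Log2 ratios of 6 gene pairs within each library, with 1 TPM added to each level; points are libraries, and bars to their right are the mean ± SD of the 3 libraries of shCtrl or GMDS-AS1 shRNA2. The groups are separated for ESRP1 to ESRP2, GRHL2 to OVOL1, VIM to CDH1 and ZEB1 to VIM, and they overlap for CTNND1 to CDH1 and EPCAM to CDH1.

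The ratio of VIM to CDH1 set a mesenchymal against an epithelial transcript. It was 0.113, 0.0837 and 0.11 in shCtrl and 0.0248, 0.0284 and 0.00924 in GMDS-AS1 shRNA2, a fall by 1.24 on the log2 scale (exact permutation p = 0.1, adjusted 0.15). With a pseudocount of 0.1 TPM the change was -2.19, and the rise of ZEB1 to VIM was 1.87 in place of 1.06. EPCAM to CDH1 differed by 0.052 between the groups (p = 0.7 in the same exact test), less than the SD of 0.15 within shCtrl. CTNND1 to CDH1 differed by 0.25 (exact permutation p = 0.2), and the highest ratio was that of GMDS-AS1 shRNA2 replicate 3, where CDH1 was lowest.

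The counts of the gene lists that follow stand beside the same 28.5% of all genes tested called higher and 25.9% called lower. The partners of the junction members moved in both directions. Of 14 adherens junction partners tested, 6 were called higher and 6 lower, and the median log2 fold change was -0.027. Among the catenins, JUP, or plakoglobin, rose from 104.4 ± 3.78 to 145.8 ± 4.58 TPM and CTNNA1, the link to actin, from 174.8 ± 2.79 to 200.3 ± 4.62 TPM. CTNNB1, the β-catenin that also serves Wnt signalling, fell from 182.7 ± 1.70 to 133.0 ± 4.32 TPM. Its log2 fold change was -0.21 after trimmed mean scaling and -0.456 with TPM as deposited. The largest fall was that of VEZT, or vezatin, a junction protein that binds myosin, from 38.0 ± 1.23 to 12.0 ± 0.506 TPM (log2 fold change -1.35, adjusted p = 2.65e-06). PLEKHA7, which binds p120-catenin at the zonula adherens, fell from 6.47 ± 0.802 to 2.18 ± 0.150 TPM, while NECTIN1, an adhesion receptor, rose from 4.83 ± 0.372 to 9.33 ± 0.800 TPM. P-cadherin, CDH3, fell by 0.61 on the log2 scale. P-cadherin RNA was thus more abundant than E-cadherin RNA in both groups, at 102.4 ± 2.59 and 56.2 ± 1.57 TPM.

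For EPCAM, 10 genes were listed around its membrane partners and cleaving proteases. Of the 9 tested, 6 were called lower and 1 higher, with a median of -0.32. CLDN7, the claudin that binds EpCAM, fell from 250.9 ± 7.46 to 151.1 ± 5.86 TPM, and FHL2, which binds its cleaved inner domain, from 196.1 ± 6.57 to 117.9 ± 1.07 TPM. The protease genes were mixed. ADAM17, a sheddase, fell by 0.32 on the log2 scale, while BACE1 rose by 0.71.

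ESRP1 was accompanied by another epithelial splicing regulator. RBM47 fell from 9.15 ± 0.858 to 3.83 ± 0.181 TPM (log2 fold change -0.86, adjusted p = 0.000185). Of the 7 other splicing regulators of EMT that were tested, it was the 1 called lower, and 4 were called higher. RBFOX2, whose protein favours mesenchymal exons, rose from 45.0 ± 1.29 to 59.6 ± 0.542 TPM and MBNL1 from 49.9 ± 2.01 to 65.5 ± 1.82 TPM. MBNL2 and PTBP1 were also called higher, but not with TPM as deposited. Of 7 genes with exons under ESRP control, 4 were called lower and 2 higher. FGFR2 fell by 0.86, ARHGEF11 by 0.74 and EXOC7 by 0.44 on the log2 scale, and ENAH rose by 0.48. CD44 fell from 276.1 ± 5.49 to 211.1 ± 0.426 TPM. Its log2 fold change was -0.139 after trimmed mean scaling and -0.385 with TPM as deposited. These are levels of whole genes, and exon use was not analysed here.

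Of 15 epithelial transcription factors listed, 11 were tested, of which 9 were called lower and 1 higher, and their median was -0.67 on the log2 scale. The count of lower genes was 8 with a replicate block, 7 of 14 without a filter and 6 of 10 without shCtrl replicate 3. GRHL1 fell from 8.92 ± 0.502 to 3.05 ± 0.402 TPM (log2 fold change -1.09, adjusted p = 0.000133), GRHL3 from 1.85 ± 0.264 to 0.573 ± 0.0681 TPM and OVOL2 from 1.74 ± 0.0907 to 0.563 ± 0.0851 TPM. KLF5 fell from 53.5 ± 2.35 to 27.9 ± 1.18 TPM. FOXA1, at 1.29 ± 0.251 and 0.26 ± 0.0265 TPM, passed the filter only through the shCtrl libraries, so its place in the count of lower genes is no support for that count. OVOL2 would not have passed by its GMDS-AS1 shRNA2 libraries alone either, so neither gene supports that count or the median. CDX2, the intestinal homeobox factor, was at 8.47 ± 0.681 and 7.5 ± 2.65 TPM and was not called, and CDX1 was listed at 0 in all libraries.

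**Figure D4:**
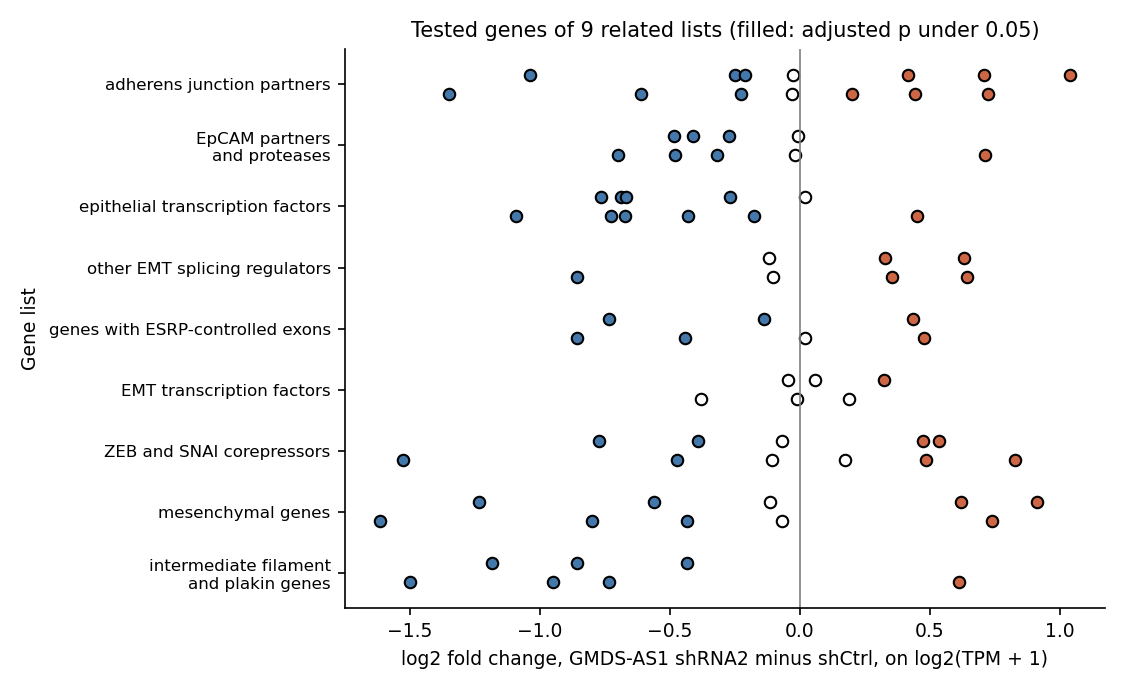
Log2 fold change on log2(TPM + 1), GMDS-AS1 shRNA2 minus shCtrl, of every tested gene in 9 lists related to the 10 genes; each point is a gene, filled where called, and the small vertical offset carries no meaning. Of the epithelial transcription factors 9 of 11 are called below 0, and of the intermediate filament and plakin genes 6 of 7. Among all genes tested, 25.9% were called lower. FOXA1 and OVOL2 would not have passed the filter without their shCtrl libraries, so they are no support for the 9. Adherens junction partners and corepressors lie on both sides of 0.

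Of 12 other EMT transcription factors listed, 6 were tested and 1 was called, TCF3, which rose by 0.32 on the log2 scale and was not called with TPM as deposited. SNAI1 was at 15.6 ± 0.353 and 13.1 ± 1.05 TPM and its log2 fold change was -0.0094 (adjusted p = 0.916). TWIST1 was at 0.75 ± 0.257 and 0.90 ± 0.560 TPM, ZEB2 was at or below 0.10 TPM, and TWIST2, PRRX1 and GSC were listed at 0 throughout. The corepressors that ZEB and SNAI factors recruit were split, with 4 of 11 called higher and 4 lower. CTBP1 rose from 81.6 ± 7.80 to 122.3 ± 5.07 TPM while its paralog CTBP2 fell from 100.4 ± 1.17 to 49.2 ± 1.88 TPM. HDAC2 rose by 0.53 on the log2 scale, and SUZ12, of the Polycomb complex that methylates histone H3, fell from 24.2 ± 0.420 to 6.50 ± 0.372 TPM (adjusted p = 3.05e-06). Of the miR-200 genes, whose small RNAs silence ZEB1, the host transcript MIR200CHG was at 8.67, 4.38 and 10.84 TPM in shCtrl and at 5.21, 6.24 and 4.1 TPM in GMDS-AS1 shRNA2 and was not called (log2 fold change -0.26, adjusted p = 0.49). Its value hung on single libraries, at -0.61 and called lower without shCtrl replicate 2 and at -0.037 without shCtrl replicate 3. The 5 hairpins were listed at 0, which in poly-A libraries does not show whether the small RNAs were made.

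Of 18 other mesenchymal genes listed, 10 were tested, with 5 called lower, 3 higher and a median of -0.28. Without shCtrl replicate 2, 3 were called lower and 2 higher. FN1, or fibronectin, fell from 11.1 ± 1.23 to 3.45 ± 0.192 TPM (adjusted p = 7.15e-05). SPARC, a matrix protein, fell by 0.80 on the log2 scale, from 1.24 ± 0.460 to 0.22 ± 0.314 TPM. In GMDS-AS1 shRNA2 it was at 0, 0.58 and 0.08 TPM, so it passed the filter through the shCtrl libraries. FBN1, also called lower, was at 0.49, 0.51 and 0.55 TPM in GMDS-AS1 shRNA2 and likewise needed its shCtrl libraries to pass. The places of SPARC and FBN1 in the count of lower genes are therefore no support for that count. In the other direction ACTA2, smooth muscle actin, rose from 13.3 ± 0.367 to 21.9 ± 0.677 TPM. N-cadherin, CDH2, did not exceed 0.07 TPM in any library.

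Of 8 intermediate filament and plakin genes listed, 7 were tested, with 6 called lower, 1 higher and a median of -0.86, beside 25.9% of all genes called lower. NES, or nestin, fell from 6.91 ± 0.372 to 1.47 ± 0.242 TPM, DES, or desmin, from 5.56 ± 0.789 to 1.97 ± 0.177 TPM and PRPH, or peripherin, from 7.84 ± 0.741 to 3.30 ± 0.931 TPM. PLEC, or plectin, which links vimentin and keratin filaments to other structures, fell from 247.1 ± 3.14 to 91.2 ± 4.81 TPM (log2 fold change -1.18, adjusted p = 1.44e-06). LMNA, the nuclear lamin A gene, was the 1 called higher, by 0.61. KRT8 and KRT18, the keratin pair of simple epithelia, fell from 4426 ± 122 to 1358 ± 29 TPM and from 2972 ± 73.1 to 701.8 ± 12.4 TPM, with log2 fold changes of -1.46 and -1.83. KRT19 fell by 0.26, and the tight junction gene CLDN4 was at 197.4 ± 3.18 and 203.7 ± 1.17 TPM. Of the 6 epithelial markers tested, 3 were called lower and 1, CLDN4, higher, a call that was lost with TPM as deposited (0.045, adjusted p = 0.162).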

How the data were processed

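The authors made poly-A libraries with a TruSeq RNA kit, sequenced them as paired reads and estimated expression with Cufflinks and RSEM, and the submitters' processing notes list Trimmomatic, TopHat2 and the build GRCh38.p13. They deposited TPM per Ensembl gene, which keep no read total. The values were therefore tested with limma 3.58.1 in R 4.3.3 on log2(TPM + 1), with a variance trend and no replicate block, after trimmed mean factors computed on TPM (30% of log ratios and 5% of means trimmed, unweighted), for genes that reached 0.5 TPM in 3 or more libraries. The factors raised GMDS-AS1 shRNA2 against shCtrl by 0.25 on the log2 scale, and the median fold change of all genes was -0.0020 with them, -0.20 with TPM as deposited and -0.07 under upper-quartile scaling. Each limma p-value weighs a group difference against the spread between libraries of a group, drawn towards the variance trend over all genes. It does not cover variation between hairpins or cell lines. On simulated data for this comparison (16460 genes), 185 of 200 changed and 9 unchanged genes were called. The simulation had normal noise, changed equal numbers of genes up and down, and changed far fewer genes than were called in the data. Its smallest change was larger than the fitted changes of CTNND1 and ESRP2. It therefore does not show how reliable calls are at the size and number of changes seen here. The 10 genes and the lists were chosen with earlier results of these data known, so their calls are no independent evidence. Named from each list were at most the 4 called genes with the largest change and a mean of at least 1 TPM in 1 group, besides genes needed for a role. Some genes of the lists that this rule would name are not reported here. Lines of 2 genes were broken and left out.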

Additional observations from a re-analysis of the deposited data

How the results depend on the processing

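The calls of CTNND1 and ESRP2 as higher and of ESRP1, OVOL1 and VIM as lower held under each alternative: TPM as deposited, upper-quartile scaling, a pseudocount of 0.1, both other filters, no variance trend, a replicate block and each library left out. With TPM as deposited, 2756 genes were called higher and 6814 lower, against 4810 and 4372 after trimmed mean scaling and 3974 and 5198 after upper-quartile scaling. Genes at least 2-fold lower numbered 717, and 1177 with TPM as deposited and 1468 with a pseudocount of 0.1, which raises the fold of low genes by its construction. Signs turned for CDH1 (-0.116) and EPCAM (-0.064) with TPM as deposited. The ratio of EPCAM to CDH1 ran from -0.0294 to 0.14 over libraries left out, negative without GMDS-AS1 shRNA2 replicate 3. With the replicate block, 4536 genes were called higher and 4095 lower, and of the genes named as called, the block ended the call of GMDS-AS1 (adjusted p = 0.0518). Without a filter SPARC (adjusted p = 0.0673) and MBNL2 (adjusted p = 0.0604) were not called. Deviations of same-numbered libraries correlated at 0.0287, -0.0370 and 0.0140, so no shared deviation was seen. Whether same-numbered libraries were handled together is not given in the labels, and these correlations cannot decide it. Among the list counts, the other splicing regulators of EMT called higher went from 4 to 2 with TPM as deposited, and the mesenchymal genes called lower from 5 to 3 without shCtrl replicate 2. TPM give no counting error, and values under about 1 TPM, such as those of SNAI2 and VIM in GMDS-AS1 shRNA2, rest on few reads.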
